A study of Mus musculus with 36 samples.

Results

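The transcripts of the cardiac calcium pump and of the small membrane peptides that bind it were followed in the hearts of CUG960 mice. The 5 genes are Atp2a2 and Atp2a3, which encode the pumps SERCA2 and SERCA3, Pln (phospholamban), Sln (sarcolipin) and Strit1 (DWORF). They were chosen by their symbols among 55291 gene symbols with counts, and all 5 passed the filter on low counts that kept 19231 genes for testing. The rule itself used symbols only, but the set was drawn up with earlier results of these data known.

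SERCA pumps return calcium from the cytosol to the sarcoplasmic reticulum after each beat, and their activity sets how fast heart muscle relaxes and how much calcium is stored for the next contraction. Phospholamban and sarcolipin are single-pass membrane peptides that bind the pump and lower its activity, and phosphorylation of phospholamban relieves its inhibition. DWORF binds the same groove of the pump and displaces the inhibitors. Sarcolipin is known as an atrial peptide and phospholamban as a mainly ventricular one in the heart.

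CUG960 mice are a heart model of myotonic dystrophy type 1 and carry the TREDT960I transgene (Hom), a human DMPK construct with 960 interrupted CTG repeats, together with MHCrtTA (Hemi), whose α-MHC promoter restricts the transactivator to cardiomyocytes. RNA was measured in left ventricle and atria at 21 weeks of age in 6 cohorts, with 3 libraries per cohort and chamber and 36 libraries in all. Every group compared here carries both transgenes. The +dox mice received dox from postnatal day 1 throughout, the -dox mice never did, and the +/-dox mice were taken off dox at 9 weeks. The MBNL1, MBNL2 and MBNL1+MBNL2 mice remained under dox and were injected at 9 weeks, by tail vein, with AAV9 carrying 3XFLAG-MBNL1, 3XMYC-MBNL2 or both human cDNAs, expressed from the cardiac TNNT2 promoter. Among the libraries used here +dox mice had no vector, so vector and MBNL protein cannot be told apart. Neither can dox and the repeat RNA where -dox or +/-dox mice are compared with +dox mice, or the MBNL cohorts with +/-dox mice. In whole tissue, fewer cells of a type and less RNA per cell cannot be told apart either.

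The 36 libraries held between 55.0 and 97.1 M expected counts, and 35 of them detected between 20578 and 24041 genes, whereas replicate 1 of the MBNL1 ventricles detected 16885. The labels name biological replicates but do not tie their numbers to animals, so the p-values measure the spread between these libraries. Per the study's sample list both chambers came from the same animals, which the tests between chambers treat as separate samples. The library names fall into 2 sets, with replicates 1 and 2 of 5 cohorts in one, and replicate 3 of those cohorts and all MBNL1+MBNL2 libraries in the other. Sex moved with these sets. By that list the MBNL1+MBNL2 mice were all male, while each other cohort had a female, and Xist, the X-inactivation RNA, was at 192 to 443 CPM in replicate 3 of the 5 other cohorts, in both chambers, and at 0.226 to 2.20 CPM in the other 26 libraries. The first library set therefore held males alone, and library set and sex cannot be told apart in the fits that use the sets. The ventricular libraries held low levels of most atrial marker RNAs, and the atrial libraries of most ventricular ones. Both varied between libraries and are given beside the genes they touch. Whether they came from carried-over tissue was not tested. All 4 cardiomyocyte markers (Myh6, Actc1, Tnnt2, Tnni3) were present in every group. The tagged MBNL cDNAs and the repeat transcript were not analysed here.

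The 3 peptides are encoded by very short reading frames, which are shown because they set the size of what is counted and how the counts relate to transcript length. They were taken from the GENCODE transcripts on GRCm38, 5′ to 3′ on the coding strand, with the start and stop codons in capitals.
Sln: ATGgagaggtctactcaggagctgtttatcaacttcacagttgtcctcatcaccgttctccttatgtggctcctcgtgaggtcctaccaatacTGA
Pln: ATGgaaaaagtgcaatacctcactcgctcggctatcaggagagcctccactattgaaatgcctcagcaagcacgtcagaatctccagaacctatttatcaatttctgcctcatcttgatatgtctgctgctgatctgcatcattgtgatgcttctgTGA
Strit1: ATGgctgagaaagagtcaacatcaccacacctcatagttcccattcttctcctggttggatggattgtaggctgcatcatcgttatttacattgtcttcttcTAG
The Sln reading frame holds 31 codons before the stop in 1 exon at chr9:53853473-53853568 on the plus strand, and makes up 7.28% of a transcript of 1318 bases. The Pln frame holds 52 codons, also in 1 exon, at chr10:53343864-53344022 on the plus strand, and makes up 6.81% of 2334 bases. The Strit1 frame holds 34 codons spread over 2 exons of chr3:63481290-63483827 on the minus strand, in a transcript model of 243 bases. The short model of Strit1 makes its length-normalised level sensitive to the effective length used.

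Atp2a2 (ENSMUSG00000029467.15, chr5:122453513-122502225, minus strand) and Pln (ENSMUSG00000038583.13, chr10:53337667-53345987, plus strand) were both abundant in the ventricle, whereas the atria held Atp2a2 with Sln (ENSMUSG00000042045.6, chr9:53850164-53854560, plus strand) and less Pln. In TPM, a transcript's share of all transcripts after division by its length, the scale on which levels of different genes can be compared, Atp2a2 lay between 3342 and 4825 in the 18 ventricular libraries and Pln between 3168 and 4056. Strit1 (ENSMUSG00000103476.1, chr3:63481112-63483879, minus strand) came next in the ventricle on this scale, with a TPM of 274 to 546, a place that rests on the short transcript model, since its CPM of 10.2 to 15.9 lay within the range of Sln and overlapped that of Atp2a3. Sln there lay between 1.95 and 32.0 TPM and Atp2a3 (ENSMUSG00000020788.15, chr11:72961169-72993044, plus strand) between 2.12 and 5.03.
In the 18 atrial libraries the order was Atp2a2 with 4952 to 7382.5 TPM, Sln with 1288 to 1774, and Pln with 708 to 1582. Atp2a3 was found at 3.20 to 6.80 TPM and Strit1 at 0.48 to 11.7 TPM. In TPM the ranges of the chambers did not overlap for Atp2a2, Pln, Sln and Strit1. In CPM those of Atp2a2 did overlap, at 11262 to 16859 in ventricle and 10931 to 18937 in atria.

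**Figure D1:**
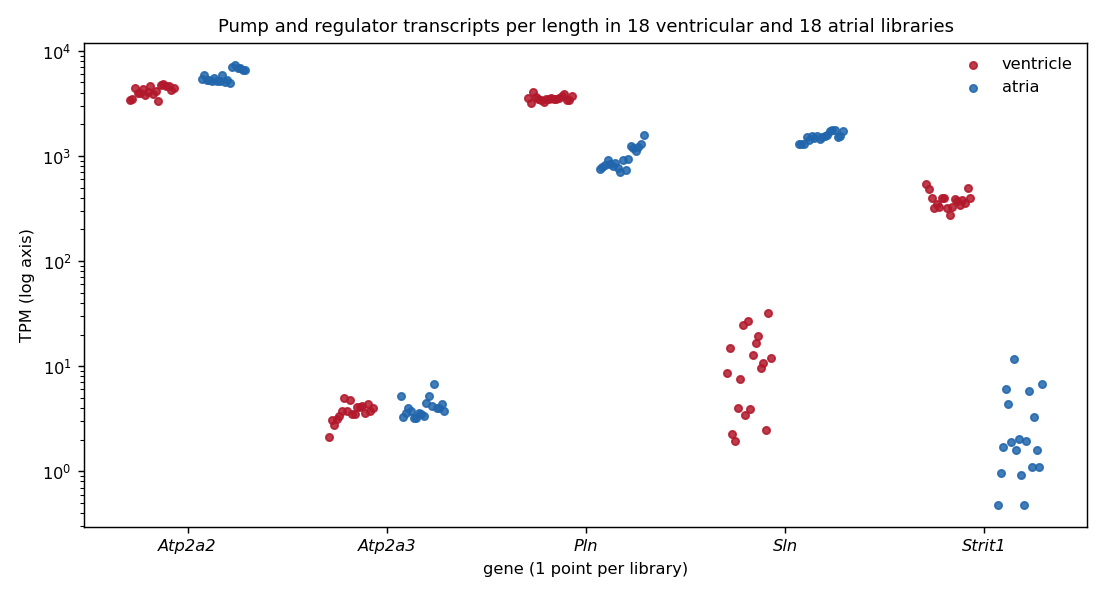
TPM on a log axis for the 5 genes, with 1 point per library, 18 ventricular libraries in red and 18 atrial libraries in blue. Sln sits between 1288 and 1774 TPM in the atria and at or below 32.0 TPM in the ventricle, while Strit1 shows the opposite order, and Atp2a3 reaches at most 6.80 TPM in either chamber.

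Which of these genes differed between the chambers was tested within each cohort on TMM-normalised counts (CPM, counts scaled to library size) with edgeR's quasi-likelihood test and Benjamini-Hochberg adjustment, a gene being called at an adjusted p below 0.05 and at least a 1.5-fold change. In the -dox mice 3 of 5 genes were called, beside 24.9% of all genes tested. The count was likewise 3 of 5 in +/-dox mice, where 24.2% of genes were called, in +dox mice with 25%, in MBNL1 mice with 25.3% and in MBNL1+MBNL2 mice with 24.1%. It was 4 of 5 in MBNL2 mice, where 21.7% of genes were called. Pln, Sln and Strit1 were called in each of the 6 cohorts, with Sln higher in atria and Pln and Strit1 higher in ventricle, and Atp2a3 was the additional gene in MBNL2 mice. The median log2 difference of all genes between atria and ventricle was 0.03 in -dox mice on this scale, but 0.32 on the log2(TPM + 1) scale, where 90.9% of the called genes were higher in atria against 55.1% here, so that small chamber differences depend on the scaling. Over the other 5 cohorts this median lay between 0.20 and 0.32 on the TPM scale. Between -dox and +dox atria the share of called genes that were higher was 54.1% on the count scale and 40.6% on the TPM scale, with a median of all genes near 0 in both (0.03 and -0.00).

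Atp2a2, the main cardiac pump gene, was not told apart between the chambers on the count scale and moved with dox in both. The chamber difference in log2 CPM lay between -0.13 and 0.09 over the 6 cohorts, with no adjusted p below 0.206 in edgeR's quasi-likelihood test. On the log2(TPM + 1) scale the same libraries gave an atrial level higher by 0.38 to 0.60, beside the shift of all genes in that scaling given above, and in -dox mice this passed 1.5-fold (0.60 ± 0.08 SE).
In the ventricle, Atp2a2 was at 11518, 12344 and 13868 CPM in replicates 1 to 3 of +dox mice. It was at 16332, 15191 and 14464.5 CPM in -dox mice and at 16446, 16859 and 14977.5 CPM in +/-dox mice. Both groups without dox at collection therefore lay wholly above the +dox libraries. The differences were 0.29 ± 0.08 (log2, SE; adjusted p = 0.0138 in edgeR's quasi-likelihood test) and 0.36 ± 0.08 (adjusted p = 0.00247), a 1.22-fold and a 1.28-fold higher level, which is under the 1.5-fold a call required.
The atria gave the same picture, with 13321.5, 13775 and 11528 CPM in +dox mice. Atp2a2 was at 16959.8, 16058 and 14766.5 CPM in -dox atria and at 16590.5, 18937 and 15697 CPM in +/-dox atria, again without overlap. The log2 differences from +dox mice were 0.31 ± 0.08 (adjusted p = 0.0106, 1.24-fold) and 0.41 ± 0.08 (adjusted p = 0.00116, 1.33-fold) in edgeR's quasi-likelihood test. With dispersions from only the 6 libraries compared, the -dox differences had an adjusted p of 0.0698 in ventricle and 0.0565 in atria.

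The libraries of the 3 MBNL cohorts stayed at the +dox level of Atp2a2. They lay between 11262 and 13871 CPM in ventricle and between 10931 and 13165 CPM in atria, overlapping the +dox libraries in every case. Against +dox mice the log2 differences ran from -0.18 to 0.09, with adjusted p of 0.479 or more in edgeR's quasi-likelihood test. Against +/-dox mice, Atp2a2 was lower in each MBNL cohort without overlap, by log2 differences of -0.26, -0.35 and -0.40 in the ventricles of MBNL1, MBNL2 and MBNL1+MBNL2 mice and of -0.48, -0.41 and -0.58 in their atria. The adjusted p (edgeR's quasi-likelihood test) were 0.0882, 0.0119 and 0.00891 in ventricle and 0.000572, 0.00138 and 3.98e-05 in atria, and each of these differences stayed under 1.5-fold. The largest, that of the MBNL1+MBNL2 atria, was 1.50-fold after rounding and was called with the ventricular markers as a term (-0.60, adjusted p = 0.000914), without replicate 1 or 2 of the MBNL1+MBNL2 atria or without replicate 1 or 3 of the +/-dox atria (-0.64 to -0.59). Without replicate 2 of the +/-dox atria it was -0.48. Ordered by mean, the 12 groups split only once without overlap of neighbouring groups, between the MBNL1 ventricles (13410 ± 286 CPM, SD, n = 3) and the -dox ventricles (15329 ± 941 CPM).

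Atp2a3 encodes SERCA3, the pump of endothelial and blood cells rather than of muscle. In the ventricle it was at 8.38, 12.8 and 10.1 CPM in +dox mice and at 18.1, 15.5 and 14.8 CPM in -dox mice. The groups did not overlap, and Atp2a3 rose 1.55-fold in -dox mice (log2 0.63 ± 0.21 SE, adjusted p = 0.0328 in edgeR's quasi-likelihood test). The edgeR call was lost without the filter on low counts (adjusted p = 0.0839) and within the first library set (0.67, adjusted p = 0.116), and in limma the log2(TPM + 1) value of 0.46 was under 1.5-fold. It was also lost without replicate 1 or 3 of the +dox ventricles or replicate 1 or 2 of the -dox ventricles, with values between 0.49 and 0.81 over all 6 omissions.
The +/-dox ventricles (16.3, 16.8 and 13.2 CPM) and the MBNL2 ventricles (17.5, 13.5 and 16.6 CPM) also lay above all +dox ventricles, at log2 differences of 0.56 (adjusted p = 0.0549) and 0.61 (adjusted p = 0.0751) that did not pass edgeR's quasi-likelihood test. The MBNL2 difference was called by DESeq2 (0.62, adjusted p = 0.0297), by limma in all 3 fits of TPM (0.59 to 0.74, adjusted p = 0.0104 to 0.0155) and by edgeR with the library set as a term (0.61, adjusted p = 0.0417), with the atrial markers as a term (0.61, adjusted p = 0.0423) or without +dox replicate 2 (0.78). Within the first library set it was 0.56 (edgeR, adjusted p = 0.291). Without +dox replicate 2 or +/-dox replicate 3 edgeR also called the +/-dox difference (0.74 and 0.66). The summed level of the 6 endothelial markers (Pecam1, Cdh5, Tek, Kdr, Vwf, Emcn) moved alongside, from 572 to 589 CPM in +dox ventricles to 732 to 827 CPM in -dox ventricles and 717 to 749 CPM in +/-dox ventricles. The 3 MBNL cohorts held 632 to 708 CPM. None of the 6 was at 0 in these groups or passed the test in -dox ventricles, and their part in the Atp2a3 values was not tested.

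In the atria Atp2a3 was at 14.9, 8.89 and 8.97 CPM in +dox mice, at 11.3, 12.4 and 9.54 CPM in -dox mice and at 11.5, 20.2 and 10.6 CPM in +/-dox mice. The ranges overlapped, and the differences from +dox mice were 0.02 and 0.37, with adjusted p of 0.967 and 0.287 (edgeR's quasi-likelihood test). The highest +dox library and the highest +/-dox library were also the ones with the most platelet RNA, whose 5 markers (Pf4, Ppbp, Itga2b, Gp9, Gp1bb) summed to 36.02 and 45.1 CPM there against 8.79 to 14.2 CPM in the other 16 atrial libraries. Without replicate 2 of the +/-dox atria the +/-dox difference was -0.01. None of the 5 was at 0 in a group, and the part of platelets in these values was not tested. The 6 endothelial markers summed to 722 to 767 CPM in +dox, 895 to 992 CPM in -dox and 775 to 909 CPM in +/-dox atria. These sums did not overlap between +dox and either other group, while those of Atp2a3 did. Over all cohorts the endothelial sums were 572 to 827 CPM in ventricle and 664 to 992 CPM in atria.
Between the chambers, Atp2a3 fell 1.69-fold in MBNL2 atria relative to ventricles (log2 -0.75 ± 0.21 SE, adjusted p = 0.00489 in edgeR's quasi-likelihood test), a call that was lost on the TPM + 1 scale (limma, -0.31, adjusted p = 0.0879). In -dox mice the edgeR difference was -0.54 (adjusted p = 0.0379), under 1.5-fold. On the TPM scale Atp2a3 was higher in atria of +/-dox, MBNL1 and MBNL1+MBNL2 mice, where it was lower on the count scale, and neither scale called these. All 11 pairs of neighbouring groups in the order of Atp2a3 means overlapped.

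The skeletal muscle paralogue Atp2a1 (SERCA1; chr7:126445858-126463108, minus strand), which could share reads with the other pumps, stayed low, at 0.10 to 0.32 TPM in ventricle and 0.58 to 1.78 TPM in atria. It rose in -dox mice in both chambers, 1.91-fold in ventricle (log2 0.94 ± 0.26 SE, adjusted p = 0.0104) and 1.82-fold in atria (0.86 ± 0.23, adjusted p = 0.0101; edgeR's quasi-likelihood test). It rose 2.32-fold in +/-dox ventricles (1.21 ± 0.26, adjusted p = 0.00109), while the +/-dox difference in atria, 0.66 ± 0.23, did not pass edgeR's quasi-likelihood test (adjusted p = 0.0594). The MBNL cohorts differed from +dox mice by 0.24 to 0.54 (adjusted p of 0.203 or more) and from +/-dox mice by -0.81 to -0.32 (adjusted p of 0.109 or more in edgeR's quasi-likelihood test). Atp2a1 was higher in atria than in ventricle in all 6 cohorts, 3.20-fold to 4.69-fold with adjusted p of 1.13e-06 or less, and its interactions of cohort and chamber had adjusted p of 0.55 or more in edgeR's quasi-likelihood test. Of the 6 skeletal muscle markers tested, 2 were higher in -dox and 2 in +/-dox atria, beside 5.23% and 3.99% of all genes. In -dox and +/-dox ventricles 0 were called, beside 7.6% and 6.6%. The 8 of the list summed to 2.57 to 3.55 CPM in -dox, 2.14 to 3.26 CPM in +/-dox and 1.05 to 1.11 CPM in +dox atria. In ventricle these sums overlapped, at 0.89 to 1.12, 0.71 to 1.04 and 0.64 to 0.98 CPM in the same order. Their part in the Atp2a1 values was not tested.

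Pln, the phospholamban gene, rose in -dox and +/-dox atria and not in the ventricles. In the ventricle Pln was at 5875, 5536 and 6417 CPM in +dox mice, at 6062, 6251 and 6140 CPM in -dox mice and at 6045, 6346 and 6294 CPM in +/-dox mice. These ranges overlapped, with log2 differences from +dox of 0.05 and 0.07 (adjusted p = 0.799 and 0.718 in edgeR's quasi-likelihood test).
In the atria the +dox libraries held 871, 843 and 867 CPM. The -dox libraries held 1512, 1624 and 1768 CPM and the +/-dox libraries 1472, 1492 and 1265 CPM. No library of these groups overlapped the +dox libraries, and the lowest -dox library was above the highest +/-dox library. Pln rose 1.90-fold in -dox atria (log2 0.93 ± 0.11 SE, adjusted p = 3.2e-07) and 1.64-fold in +/-dox atria (0.71 ± 0.11, adjusted p = 2.69e-05; edgeR's quasi-likelihood test). The difference between -dox and +/-dox atria did not pass edgeR's quasi-likelihood test (0.21 ± 0.11, adjusted p = 1).

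In the MBNL cohorts atrial Pln was at 993, 979 and 806 CPM (MBNL1), 1036, 896 and 749 CPM (MBNL2) and 1037, 764 and 970 CPM (MBNL1+MBNL2). Each of these ranges overlapped that of +dox mice and lay wholly below +/-dox mice. The differences from +dox were 0.11, 0.05 and 0.10 (adjusted p between 0.844 and 1), and Pln fell relative to +/-dox atria by 0.61, 0.66 and 0.61 on the log2 scale (adjusted p = 0.00075, 0.000115 and 0.000509; edgeR's quasi-likelihood test).
These last differences were 1.52-fold, 1.58-fold and 1.53-fold, just past the threshold, and dropped below 1.5-fold for the MBNL1 and MBNL1+MBNL2 mice on the TPM + 1 scale (-0.47 and -0.46) with adjusted p of 0.00158 and 0.00145 in limma. The 1.5-fold mark was also missed without replicate 3 of the MBNL1 atria (-0.52), replicate 3 of the MBNL2 atria (-0.54), replicate 2 of the MBNL1+MBNL2 atria (-0.49) and, for MBNL1 and MBNL1+MBNL2 mice, replicate 1 or 2 of the +/-dox atria (-0.58 to -0.55). It was missed as well for MBNL1+MBNL2 mice with the library set as a term (-0.56, adjusted p = 0.000829 in edgeR's quasi-likelihood test) and for MBNL1 mice within the first set (-0.58, adjusted p = 0.000461). Without replicate 3 of the +/-dox atria, which leaves males alone on both sides of the MBNL1+MBNL2 comparison, that difference was -0.68 and was called.
In the ventricle the MBNL2 libraries (4802, 5270 and 4912 CPM) lay below all +dox and +/-dox libraries. The difference from +dox was -0.25 ± 0.11 and did not pass edgeR's quasi-likelihood test (adjusted p = 0.155).

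**Figure D2:**
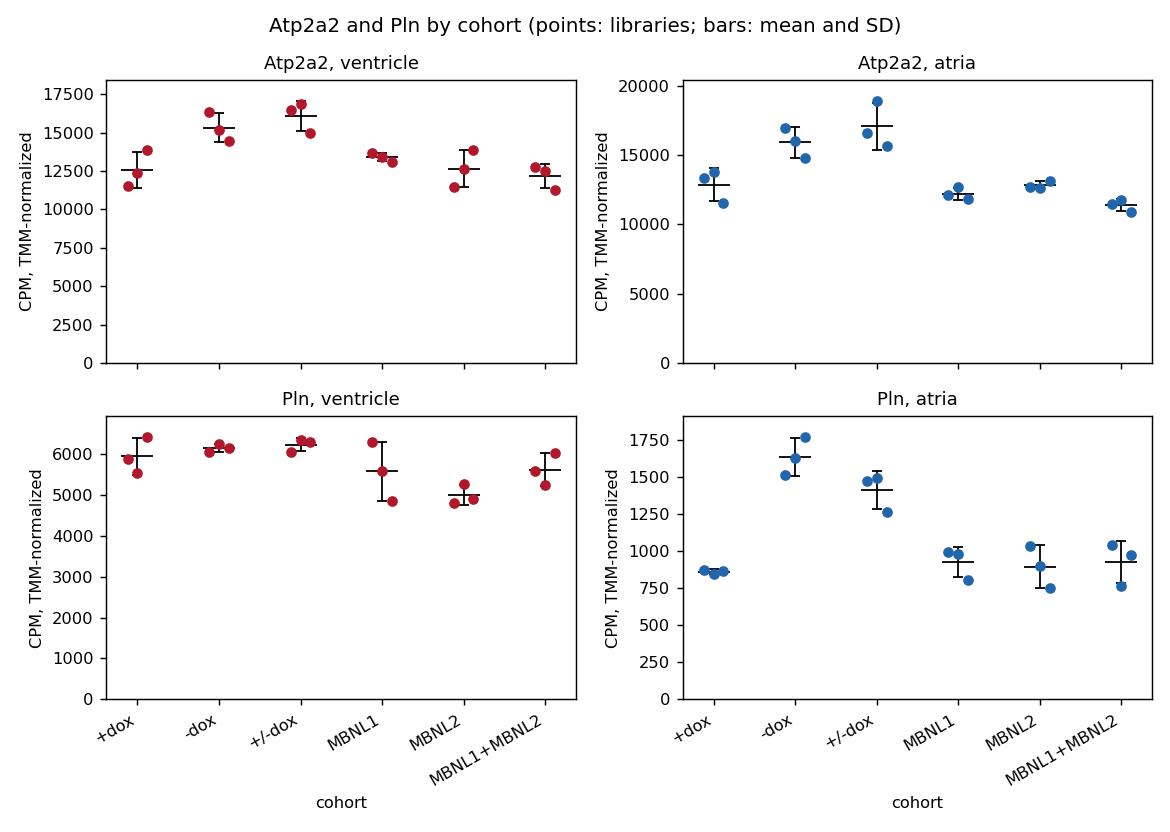
CPM of Atp2a2 and Pln in the 6 cohorts, with points for the 3 libraries of a group and bars for the mean and SD, and each axis starting at 0. The -dox and +/-dox points of Atp2a2 lie above the +dox points in both chambers, whereas those of Pln do so in the atria, where the +dox libraries lie between 843 and 871 CPM.

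Whether the Pln response differed between the chambers was tested as an interaction. The -dox effect was larger in atria than in ventricle by 0.88 ± 0.15 (log2, SE; adjusted p = 0.00183), and the +/-dox effect by 0.65 ± 0.15 (adjusted p = 0.039; edgeR's quasi-likelihood test). Here 1 of 5 genes was called in each, beside 0.764% and 0.489% of all genes. The +/-dox interaction missed the adjusted threshold when any 1 of 10 libraries was omitted, the exceptions being replicate 2 of the +dox ventricles and replicate 3 of the +/-dox atria. Over the 12 omissions its value ran from 0.58 to 0.72. The interactions of the MBNL cohorts with chamber were 0.20, 0.31 and 0.18 for MBNL1, MBNL2 and MBNL1+MBNL2 mice, with no adjusted p below 0.466 in edgeR's quasi-likelihood test. For these 3 interactions 0 of 5 genes were called in edgeR, beside 0.0312%, 0.0364% and 0.0728% of all genes; at an unadjusted p below 0.05 there were 1, 2 and 0 genes, and DESeq2 called 0, 1 and 0.

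The chamber difference of Pln was smaller in -dox and +/-dox mice than in +dox mice. Pln fell in atria relative to ventricle by 1.91 on the log2 scale in -dox mice (3.76-fold), by 2.14 in +/-dox mice (4.42-fold) and by 2.79 in +dox mice (6.91-fold), with adjusted p of 5.15e-15, 3.74e-16 and 2.16e-18 in edgeR's quasi-likelihood test. In the MBNL cohorts the chamber difference ran from 5.59-fold to 6.08-fold. Atrial Pln amounted to 13.0% to 30.7% of its mean ventricular level. The ventricular markers Myl2, Myl3 and Irx4 amounted to at most 2.30%, 2.24% and 2.15% of theirs, while Hey2, the remaining marker, amounted to 37.7% to 89.3%. With the ventricular markers as a term in a fit of the atrial libraries, Pln remained higher in -dox atria (0.87 ± 0.11, adjusted p = 2.93e-05) and in +/-dox atria (0.60 ± 0.12, adjusted p = 0.00221; edgeR's quasi-likelihood test), while the difference of MBNL1+MBNL2 from +/-dox atria (-0.48) was then under 1.5-fold. Pln lies inside Cep85l, which is on the other strand, and overlaps Gm47644, also on the other strand. Gm47644 was at 6.93 to 21.8 CPM in ventricle and 0.81 to 5.63 CPM in atria and Cep85l at 24.02 to 40.2 CPM over both chambers, far below Pln in every library. The strand setting of the counting was not given, so reads of these overlapping genes cannot be told apart.

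Sln encodes sarcolipin, and its transcript was high in all atrial libraries and low in all ventricular ones. In the ventricle it was at 8.35, 15.1 and 2.07 CPM in +dox mice, at 2.55, 33.1 and 11.5 CPM in -dox mice and at 19.4, 9.87 and 10.1 CPM in +/-dox mice. The MBNL1 ventricles held 1.95, 3.95 and 6.74 CPM, the MBNL2 ventricles 21.7, 3.13 and 23.8 CPM and the MBNL1+MBNL2 ventricles 3.73, 11.3 and 16.3 CPM. The highest -dox library thus lay far above the lowest, and no cohort was told apart from +dox mice (log2 differences of -1.03 to 0.92, adjusted p of 0.389 or more in edgeR's quasi-likelihood test).
In the atria Sln lay between 823 and 1315 CPM, so that no ventricular library reached the lowest atrial one. The difference between chambers was 63.0-fold in MBNL2 mice, 69.3-fold in -dox mice, 93.7-fold in +/-dox mice, 96.5-fold in MBNL1+MBNL2 mice, 101-fold in +dox mice and 235-fold in MBNL1 mice. All 6 passed edgeR's quasi-likelihood test, with adjusted p of 1.26e-06 or less. The ventricular levels of the cohorts overlapped, so the order of the cohorts in this fold is not told apart from the spread between libraries. With any 1 of their libraries left out, among them the MBNL1 ventricle with few detected genes, the log2 chamber difference of MBNL1 mice lay between 7.54 and 8.40.

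The ventricular Sln followed the atrial light chains Myl7 and Myl4 in the same library, while Bmp10, Kcnj3 and Mybphl did not follow it throughout. As a share of the mean atrial level, Sln ranged from 0.188% to 3.19% over the 18 ventricular libraries, with a median of 0.961%. Myl7, the atrial regulatory light chain, ranged from 0.114% to 3.00% with a median of 1.06%, and Myl4, the atrial essential light chain, from 0.160% to 2.98% with a median of 1.04%. The shares of Nppa (0.385% to 2.98%) and Mybphl (0.282% to 3.48%) were similar, those of Bmp10 (0.134% to 0.741%) were lower, those of Dkk3 (0.349% to 6.09%) reached higher, and those of Stard10 (3.12% to 8.65%) and Kcnj3 (9.62% to 21.2%) were higher throughout. Bmp10 was at 2.31 CPM in -dox replicate 2, with the highest Sln (33.1 CPM). It was at 9.98 CPM in -dox replicate 3, with Sln at 11.5 CPM. Mybphl was highest in +dox replicate 3 (22.8 CPM), where Sln was at 2.07 CPM. The Kcnj3 share was highest in -dox replicate 1 (Sln 2.55 CPM) and lowest in MBNL2 replicate 1 (Sln 21.7 CPM). The 8 markers of the list summed to 185 to 710 CPM in the ventricles and to 16777 to 27537 CPM in the atria, and none was at 0 in any group.

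The ratio of Sln to Myl7 in CPM was 0.276 to 0.466 in 17 ventricular libraries and 0.333 to 0.508 in the atrial libraries. The exception was -dox replicate 1, with a ratio of 0.882 at the lowest Myl7 of all. The ratio to Myl4 likewise had nearby medians, 0.225 in ventricle and 0.248 in atria, as did those to Mybphl (1.35 and 1.60) and Nppa (0.0768 and 0.0932). The medians differed by more for the other 4 markers, at 0.473 and 1.06 for Dkk3, 1.43 and 0.786 for Bmp10, 0.316 and 1.65 for Stard10 and 0.139 and 2.07 for Kcnj3, of which the last 2 had ranges that did not overlap between the chambers. Over the 18 ventricular libraries, the deviation of log2 CPM of Sln from its cohort mean followed that of 6 atrial markers (Bmp10, Mybphl, Myl7, Dkk3, Stard10, Kcnj3), with Pearson's r = 0.947 (permutation p = 0.00013, adjusted 0.00026) and Spearman's rho = 0.901 (permutation p = 0.00018, adjusted 0.00036), from 100000 two-sided permutations within cohorts and 2 relations computed. Without the 2 libraries farthest from the median of the markers r was 0.951 (permutation p = 0.0011).
With these markers as a term in a fit of the ventricular libraries, the Sln difference of MBNL1 mice from +dox mice went from -1.03 to 0.19 (adjusted p = 0.824 in edgeR's quasi-likelihood test) and that of -dox mice from 0.88 ± 0.68 (adjusted p = 0.403) to 1.04 ± 0.33 (adjusted p = 0.0467; edgeR's quasi-likelihood test), which passed both thresholds. No fit without the marker term called the -dox Sln difference, and the fit with it was not repeated without single libraries. The term included Mybphl, which was highest in +dox replicate 3 (22.8 CPM), where Sln was at 2.07 CPM. Without -dox replicate 2, the library with the highest sum of atrial markers, the -dox difference in the fit without the marker term was -0.31.

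**Figure D3:**
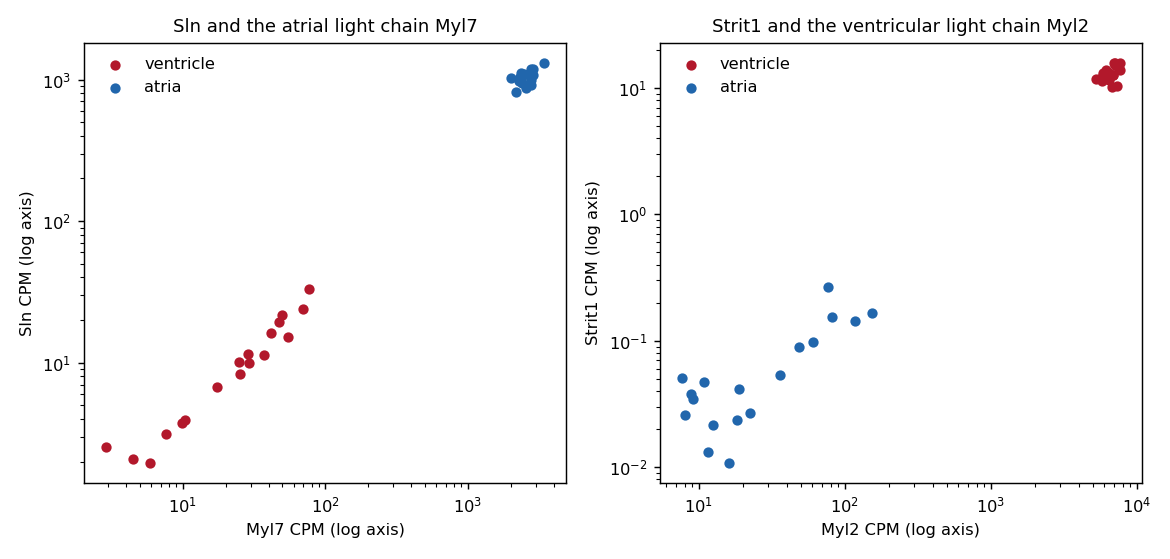
Sln against Myl7 (left) and Strit1 against Myl2 (right) in CPM on log axes, with 1 point per library, ventricle in red and atria in blue. In the ventricles Sln is higher where Myl7 is higher, and in the atria Strit1 lies at or below 0.266 CPM, with its highest values in the libraries that hold the most Myl2.

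Within the atria Sln was at 917, 868 and 823 CPM in +dox mice. It was at 1069, 1091 and 1119 CPM in -dox mice and at 1191, 1315 and 1184 CPM in +/-dox mice. Both groups lay above all +dox atria, and the +/-dox libraries were the highest of all groups. The MBNL1 atria (1005, 999 and 978 CPM), the MBNL2 atria (1035, 1084 and 945 CPM) and the MBNL1+MBNL2 atria (1002, 1009.96 and 1017 CPM) lay between +dox and +/-dox atria, without overlap with either.
In the fit of all 36 libraries, whose spread for Sln included the scattered ventricular values, the differences from +dox atria were 0.33 ± 0.65 for -dox (adjusted p = 0.787 in edgeR's quasi-likelihood test) and 0.50 ± 0.65 for +/-dox mice (adjusted p = 0.693). With only the 6 atrial libraries compared they were 0.32 ± 0.07 (adjusted p = 0.0115) and 0.49 ± 0.08 (adjusted p = 0.00249; edgeR's quasi-likelihood test), a size under 1.5-fold in both fits. In the same narrower fits the MBNL cohorts differed from +dox atria by 0.20, 0.24 and 0.22 with adjusted p of 0.244, 0.707 and 0.234, and from +/-dox atria by -0.29, -0.26 and -0.27 with adjusted p of 0.0309, 0.0402 and 0.0361. The atrial markers Myl7, Myl4 and the other 6 of the list summed to 16777 to 19396 CPM in +dox atria to 23732 to 25378 CPM in -dox atria and to 24384 to 27537 CPM in +/-dox atria. The 3 MBNL cohorts held 18058 to 25195 CPM. The marker sums reached their highest value in the +/-dox atria, as Sln did, but overlapped those of -dox atria. Nppa was at 7015 to 8188 CPM in +dox, 12376 to 13789 CPM in -dox and 12659 to 14237 CPM in +/-dox atria. Bmp10 was at 1390 to 1581 CPM in +dox and 1116 to 1303 CPM in +/-dox atria. Myl7 in -dox atria (2355 to 2706 CPM) lay within its +dox range (2189 to 2751 CPM). In the fit of all 36 libraries 0 of the 8 markers were called in -dox or +/-dox atria, beside 5.23% and 3.99% of all genes. The spread in that fit also included ventricular values, which varied between libraries from 2.20-fold (Kcnj3) to 26.4-fold (Myl7). The count of 0 therefore does not show that the markers were unchanged. The part of the tissue's makeup in the Sln values was not tested.

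Strit1 encodes DWORF, the peptide that opposes the inhibitors, and its transcript was scarce in the atria. The 18 ventricular libraries held 597 to 1378 counts each, and the 18 atrial libraries 1 to 23 counts, with 9 of them at 3 counts or fewer. Summed over the 3 libraries of a cohort, +dox atria held 6 counts against 3596 in +dox ventricles, a ratio of 640 (95% Poisson interval 294 to 1743, counting error only). The ratio was 195 in -dox mice (123.2 to 329), 157 in +/-dox mice (99.4 to 265), 120 in MBNL1 mice (81.2 to 185), 98.0 in MBNL2 mice (68.7 to 145) and 422 in MBNL1+MBNL2 mice (205 to 1050). Single libraries carried some of these sums. Replicate 1 of the MBNL2 atria held 23 of 30 counts, and without it the ratio was 273 (133 to 680). Replicate 3 of the -dox atria held 13 of 18 counts, and without it the ratio was 469 (201 to 1444). Without replicate 3 of the MBNL1+MBNL2 atria, 3 counts were left and the ratio was 662 (226 to 3210).
All 6 chamber differences passed edgeR's quasi-likelihood test, with fitted log2 values from -9.22 to -6.60 and adjusted p of 1.17e-14 or less. The intervals of +dox mice did not overlap those of +/-dox, MBNL1 and MBNL2 mice, and those of MBNL1+MBNL2 mice did not overlap those of MBNL1 and MBNL2 mice, but they cover counting error only. The atrial counts behind them varied with the ventricular markers of the same library, as given below, and carry-over as their source was not tested. Without replicate 1 of the MBNL2 atria the MBNL2 interval overlapped those of +dox and MBNL1+MBNL2 mice. As a share of the mean ventricular level Strit1 in atria was 0.0820% to 2.03%, Myl2 0.115% to 2.30%, Myl3 0.0932% to 2.24% and Irx4 0.0424% to 2.15%, while Hey2, the fourth ventricular marker, was at 37.7% to 89.3%. None of the 4 was at 0 in a group, and their sum ran from 13.7 to 249 CPM in atria and from 9021 to 12490.5 CPM in ventricles.

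Over the 18 atrial libraries the deviation of Strit1 from its cohort mean followed that of the 4 ventricular markers, with Pearson's r = 0.831 (permutation p = 0.0017, also after adjustment) and Spearman's rho = 0.802 (permutation p = 0.0026, also after adjustment). Without the 2 libraries farthest from the median r was 0.769 (permutation p = 0.041) and rho 0.621 (permutation p = 0.087). The difference of Strit1 between +/-dox and +dox atria, 1.81 ± 0.81 in edgeR's quasi-likelihood test (adjusted p = 0.155), which DESeq2 called (1.88, adjusted p = 0.0412), was 0.64 ± 0.80 (adjusted p = 0.663) with the ventricular markers as a term.

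In the ventricle Strit1 was at 15.7, 13.8 and 15.3 CPM in +dox mice, at 13.1, 15.8 and 15.9 CPM in -dox mice and at 13.1, 12.8 and 14.2 CPM in +/-dox mice. These ranges overlapped. The MBNL1 ventricles, at 10.4, 12.6 and 11.5 CPM, and the MBNL2 ventricles, at 11.7, 12.7 and 11.3 CPM, lay below all +dox ventricles, while 1 of the MBNL1+MBNL2 ventricles (10.2, 12.5 and 14.01 CPM) did not. Without the MBNL1 ventricle with few detected genes, which was the lowest of its cohort, the other MBNL1 ventricles were still below all +dox ones.
The differences from +dox mice were -0.38 ± 0.25 for MBNL1, -0.33 ± 0.25 for MBNL2 and -0.29 ± 0.25 for MBNL1+MBNL2 mice in the fit of all libraries, with adjusted p of 0.37, 0.49 and 0.55. With only the libraries compared the standard errors were 0.11, 0.09 and 0.13 and the adjusted p 0.157, 0.0924 and 0.331 (edgeR's quasi-likelihood test), so that no fit called a change. The -dox difference was -0.00 ± 0.25 (edgeR's quasi-likelihood test, adjusted p = 1.00).

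**Figure D4:**
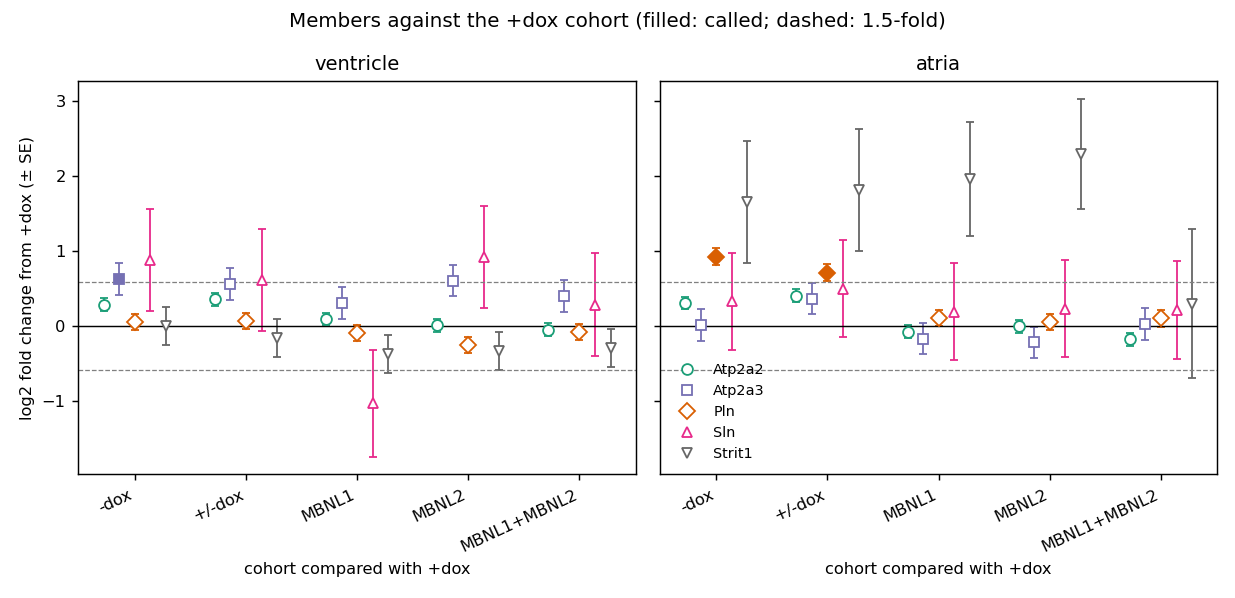
Log2 fold change from +dox mice (± SE) of the 5 genes in the 5 other cohorts, ventricle on the left and atria on the right, from edgeR's quasi-likelihood fit of 36 libraries. Filled symbols passed an adjusted p below 0.05 and 1.5-fold (dashed lines), which were Atp2a3 in -dox ventricles and Pln in -dox and +/-dox atria; the wide bars belong to Sln and to atrial Strit1.

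Counted over the 5 genes, the comparisons with +dox mice gave few calls. In -dox mice 1 of 5 was called in ventricle (Atp2a3), beside 7.6% of all genes tested, and 1 of 5 in atria (Pln), beside 5.23%. In +/-dox mice 0 of 5 were called in ventricle, beside 6.6%, with 2 genes (Atp2a2 and Atp2a3) at an unadjusted p below 0.05 and 0 called by DESeq2, and 1 of 5 in atria (Pln), beside 3.99%. For the MBNL cohorts edgeR called 0 of 5 in ventricle, beside 2.66% of all genes in MBNL1, 1.52% in MBNL2 and 2.65% in MBNL1+MBNL2 mice; 0, 2 and 0 genes had an unadjusted p below 0.05, and DESeq2 called 0, 1 (Atp2a3) and 0.
In the atria of the MBNL cohorts edgeR also called 0 of 5, beside 0.13%, 0.0052% and 0.26% of all genes in the same order; 1 gene each had an unadjusted p below 0.05 and DESeq2 called 0 in each. Against +/-dox mice 0 of 5 were called in the ventricles of MBNL1, MBNL2 and MBNL1+MBNL2 mice, beside 0.868%, 1.57% and 0.53% of all genes, with 2, 2 and 1 genes at an unadjusted p below 0.05 and 0 called by DESeq2 in each. In the atria 1 of 5 (Pln) was called in each, beside 1.21%, 3.24% and 1.71%. Between -dox and +/-dox mice 0 of 5 were called in either chamber, beside 0.0312% of all genes in ventricle and 0.0104% in atria, with 0 genes at an unadjusted p below 0.05 and 0 called by DESeq2. All comparisons with +dox mice share the same +dox libraries, and those with +/-dox mice the same +/-dox libraries.

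Set against the pump transcript of the same library on the TPM scale, the regulators formed a different mixture in each chamber. In the ventricle Pln amounted to 73.6% to 105% of Atp2a2, Strit1, with its short transcript model, to 6.99% to 16.2% and Sln to 0.0494% to 0.758%. In the atria Pln amounted to 12.0% to 23.8%, Sln to 21.8% to 31.8% and Strit1 to 0.00885% to 0.225%. Sln exceeded Pln in every atrial library and Pln exceeded Sln in every ventricular one.
The Pln share was lower in -dox and +/-dox mice than in +dox mice in the ventricle and higher in the atria. In the ventricle the ratio of Pln to Atp2a2 averaged 0.962 ± 0.071 under +dox (SD over 3 libraries), 0.792 ± 0.051 under -dox and 0.788 ± 0.041 under +/-dox, without overlap between +dox and either. In the atria it was 0.141 ± 0.012 in +dox mice, 0.205 ± 0.032 in -dox mice and 0.168 ± 0.0096 in +/-dox mice, again without overlap with +dox. In the MBNL1, MBNL2 and MBNL1+MBNL2 ventricles it was 0.860 ± 0.065, 0.825 ± 0.064 and 0.934 ± 0.11, and the first 2 lay below all +dox ventricles, MBNL1 only narrowly (0.916 at most against 0.917 at least). In the atria of these cohorts it was 0.160 ± 0.014, 0.144 ± 0.023 and 0.170 ± 0.026, overlapping +dox mice in each. These ratios combine the Atp2a2 and Pln values given above and were not tested on their own. The atrial ratio of Sln to Atp2a2 was 0.234 ± 0.014 in +dox, 0.238 ± 0.021 in -dox and 0.248 ± 0.0088 in +/-dox mice, and 0.280 ± 0.0064, 0.274 ± 0.027 and 0.303 ± 0.013 in MBNL1, MBNL2 and MBNL1+MBNL2 mice, of which MBNL1 and MBNL1+MBNL2 mice lay above the other 3 cohorts without overlap.

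**Figure D5:**
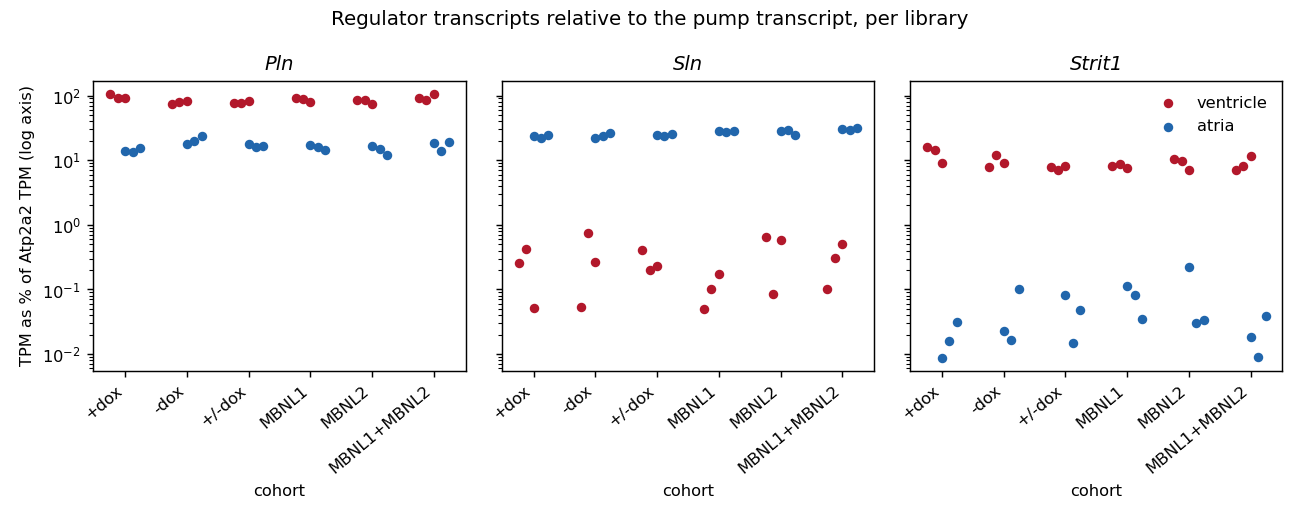
TPM of Pln, Sln and Strit1 as a percentage of the Atp2a2 TPM of the same library, on a shared log axis, by cohort, with ventricle in red and atria in blue. Pln lies at 73.6% to 105% in the ventricle and 12.0% to 23.8% in the atria, and Sln at 21.8% to 31.8% in the atria.

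The genes most like each member were looked up as those with the highest Pearson's r on log2 CPM. Over all 36 libraries, in which the chambers dominate, Sln was closest to Myl4 (0.998), Myl7 (0.997) and Tmem163 (0.997), and Strit1 to Mpped2 (0.990), Myl2 (0.990) and Irx4 (0.989). Pln was closest to Asb14 (0.989), Armc2 (0.987) and Ivns1abp (0.987), Atp2a2 to Cmya5 (0.862), Snrnp200 (0.819) and Peg13 (0.812), and Atp2a3 to Alox12 (0.749), Tns1 (0.736) and Hey2 (0.724).
Over the 18 ventricular libraries alone Sln kept the same 3 genes, with 0.980, 0.972 and 0.961. Atp2a2 was then closest to the glutathione transferases Gstk1 (0.969) and Gstm7 (0.943) and to Echs1 (0.939), Pln to Cox7b (0.930), Ppa2 (0.913) and Upf3b (0.912), Strit1 to Dnajc15 (0.882), Cpd (0.859) and Atad2 (0.855), and Atp2a3 to Ddr2 (0.871), Timp3 (0.851) and Enpp2 (0.827). These values describe libraries that share cohorts and chambers, and they are the highest of 19231 genes.

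Around the pump, 36 further genes of calcium handling were listed, all of which were tested. They comprised 8 other pumps and regulators of the pump, 4 storage proteins of the reticulum, 14 genes for phosphorylation of phospholamban and 10 for calcium release and extrusion. In -dox ventricles 3 were higher and 3 lower than in +dox ventricles, 6 of 36 beside 7.6% of all genes, and the median log2 difference of the list was -0.16 against 0.01 for all genes. The gene of the release channel, Ryr2, rose 1.95-fold (0.96 ± 0.07), Cacna1c, the L-type calcium channel, rose 1.55-fold (0.63 ± 0.07), and Atp2a1 rose as given above. Ppp1r1a, the inhibitor-1 of protein phosphatase 1, fell 3.27-fold (-1.71 ± 0.20), 1810037I17Rik (Arln, another small peptide of the pump) fell 1.81-fold (-0.86 ± 0.10) and Asph, which yields the junctional protein junctin, fell 1.80-fold (-0.85 ± 0.09), all with adjusted p of 2.45e-07 or less in edgeR's quasi-likelihood test.
In -dox atria 2 were higher and 3 lower, beside 5.23% of all genes, with a median of -0.08 against 0.03 for all genes. Ryr2 rose 1.62-fold (0.69 ± 0.07) and Atp2a1 as above, while Ppp1r1a fell 2.82-fold (-1.50 ± 0.18), Casq2, the calcium-binding protein of the store, fell 1.54-fold (-0.62 ± 0.13) and 1810037I17Rik fell 1.51-fold (-0.59 ± 0.10), with adjusted p of 0.00107 or less for these 4. In +/-dox mice 3 were higher and 3 lower in ventricle, beside 6.6% of all genes, and 1 higher and 2 lower in atria, beside 3.99%. In the MBNL cohorts 1810037I17Rik alone was called in MBNL1 ventricles, where it was lower, beside 2.66% of all genes. In the other 5 comparisons with +dox mice edgeR and DESeq2 called 0 of the 36, beside 0.0052% to 2.65% of all genes, with 19 and 15 genes at an unadjusted p below 0.05 in MBNL2 and MBNL1+MBNL2 ventricles and 3, 1 and 7 in MBNL1, MBNL2 and MBNL1+MBNL2 atria. Between the chambers of -dox mice, 6 of the 36 were higher and 5 lower in atria, beside 24.9% of all genes.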

How the data were processed

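Poly(A)-selected RNA was measured by bulk RNA-seq from left ventricle and atria, 36 libraries in all. The authors aligned the reads with STAR 2.7.10b to mm10 and counted them with RSEM 1.3.1, per the submitters' processing notes, and deposited expected counts and TPM per gene for each library. The expected counts deposited by the authors were rounded to whole numbers. The TPM values deposited by the authors, which RSEM divides by effective length, were used for levels between genes. The library protocol was stranded, and the strand setting of the counting was not given in the sources used here. No column belonged to another series.

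Genes were filtered with filterByExpr (19231 of 55291 kept), scaled by TMM and fitted with edgeR 4.0.16 (R 4.3.3) over all 36 libraries in 12 groups of 3, with robust quasi-likelihood tests and Benjamini-Hochberg adjustment over all genes tested. A gene was called at an adjusted p below 0.05 and at least 1.5-fold. CPM were computed from TMM library sizes, and the SE from the fold change and its F statistic. Samples were grouped by cohort and chamber as labelled. Compared were each cohort with +dox mice, -dox and the MBNL cohorts with +/-dox mice, atria with ventricle, and the interactions of both. The alternatives were RLE size factors, DESeq2 1.42.0, no filter, limma 3.58.1 on log2(TPM + 1) and log2(TPM + 0.1) with and without a mean TPM of at least 1, only the groups compared, a library set term or the first set alone, a replicate block, leaving out each library, and the atrial markers as a term. The ventricular markers as a term were added after seeing the data. The fits were tested on simulated data. Totals ran from 55.0 to 97.1 M expected counts, and Poisson intervals cover counting error only.

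The 5 members, the marker lists and the 36 pathway genes were chosen with earlier results of these data known. Named are the 5 members, Atp2a1, pathway genes that were called, and the 3 genes most like each member. Gm47644 and Cep85l, which overlap Pln, were named after their values were seen. Positions and sequences are from GENCODE on GRCm38, the same assembly as mm10.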

Additional observations from a re-analysis of the deposited data

Results flagged for a closer look

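The response of Pln to dox differed between the chambers by a test of the difference itself. The log2 change from +dox to -dox mice was larger in atria than in ventricle by 0.88, and that from +dox to +/-dox mice by 0.65. The second was not called without the filter on low counts, in the limma fits of TPM or when any 1 of 10 libraries was omitted.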

How the results depend on the processing

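Over 72 results for the 5 genes, 1181 alternative values were computed, of which 1074 kept direction and side of the threshold, 41 lost a call, 21 gained one and 45 changed sign. Of 27 called results 21 were called under every alternative run for them, and none of the 27 changed sign. The cause of the changes below was not tested.

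In ventricle, -dox against +dox, Atp2a3 (0.63) was 0.62 without the filter, 0.46 on log2(TPM + 1) with or without the TPM minimum and 0.67 in the first library set, Pln (0.05) was -0.027 in the 3 TPM fits, Sln (0.88) 1.04 with the atrial marker term, and Strit1 (-0.00) 0.018 with RLE, 0.018 in DESeq2 and 0.013 with the marker term. Sln in MBNL1 ventricles (-1.03) was 0.19 with that term. In atria Atp2a3 under -dox (0.02) was -0.013 in the first set, and Strit1 under +/-dox (1.81) was 1.88 in DESeq2. In the TPM fits the chamber difference of Atp2a2 was 0.60 in -dox, 0.38 in MBNL1 and 0.44 in MBNL1+MBNL2 mice, and that of Atp2a3 was 0.25 or 0.30 in +/-dox, 0.078 or 0.10 in MBNL1 and 0.18 or 0.21 in MBNL1+MBNL2 mice. The +/-dox interaction of Pln (0.65) was 0.64 without the filter and 0.53 in the TPM fits. The genes called went from 1461 to 714 and 645 (ventricle, -dox), from 1270 to 629 and 587 (ventricle, +/-dox), from 1005 to 690 and 603 (atria, -dox) and from 767 to 554 and 501 (atria, +/-dox) on log2(TPM + 1), the second value with the TPM minimum. Those of the -dox chamber comparison went from 4795 to 8312 on log2(TPM + 0.1), and those of the -dox interaction from 147 to 274 in DESeq2.

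Leaving out 1 library gave, in ventricle, 0.49 to 0.81 (Atp2a3, -dox), 0.43 to 0.74 (Atp2a3, +/-dox), -0.00052 to 0.11 (Pln, -dox), -0.31 to 1.57 (Sln, -dox), -0.055 to 0.083 (Strit1, -dox) and -0.20 to 0.98 (Sln, MBNL1+MBNL2). In atria it gave -0.11 to 0.31 (Atp2a3, -dox) and -0.0088 to 0.66 (Atp2a3, +/-dox). Chamber differences ran from -0.024 to 0.11, -0.017 to 0.14 and -0.045 to 0.092 for Atp2a2 in +dox, +/-dox and MBNL2 mice, and from -0.22 to 0.25, -0.50 to 0.042 and -0.63 to -0.45 for Atp2a3 in +dox, +/-dox and -dox mice. Interactions ran from 0.58 to 0.72 (Pln, +/-dox), -1.25 to 0.63 (Sln, -dox) and -0.81 to 0.34 (Sln, +/-dox). The genes called ran from 486 to 796 in +/-dox atria and from 89 to 164 for the -dox interaction.

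With a replicate block all 72 results for the 5 genes kept their direction and side, and the -dox interaction called 299 genes in place of 147. The chambers share animals, but no source ties the numbers to them: ventricle and atria of the same cohort and number correlated at 0.04 to 0.26, above 0.1 in 11 of 18 pairs, and 17 of 18 ventricles correlated best with the atria of their own number, a hint from the data that the numbers mark animals. In 5 cohorts, however, replicate 3 differed from the others in sex and library set in both chambers, which alone could match those pairs by number.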
